A study of Mus musculus with 2 samples.

Results

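Pericytes were taken as the barcodes of brown adipose tissue nuclei that carried a set of mural genes and few genes of other cells. A barcode was kept when at most 10% of its UMIs (unique molecular identifiers, the counted RNA molecules) were mitochondrial and Ppara and Cidea, both adipocyte genes, made up less than 0.3% of them. It also needed a UMI for at least 3 of the 9 genes Stac, Kcnq5, Lin7a, Abcc9, Il34, Elmod1, Kcnd3, Rgs5 and Notch3. It had to hold fewer than 2 of the smooth muscle genes Myh11, Myocd, Acta2 and Tagln, and at most 1 of Flt1, Cyyr1, Col6a3, Dcn, F13a1, Mrc1 and Ttn, which mark endothelial cells, fibroblasts, macrophages and muscle. This gave 488 of 29175 barcodes, 194 of 13030 in the library labelled KO and 294 of 16145 in the library labelled Flox. These counts chose the nuclei, so the levels of these 20 marker genes and of Ppara and Cidea are a description of the choice and no finding.

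The KO library came from mice with a knockout of Nfe2l1, named Nfe2l1(f)-KO in the series design, and the Flox library from Flox mice, both sampled at 4 weeks of age. Single nuclei were profiled by 10x Genomics 3′ v3 RNA sequencing, with 1 library per genotype. The sources used here do not give the deleted exons, the Cre line and its driver, or how many mice each library pooled. With 1 library per genotype no difference between the genotypes has a replicate check, so values are set side by side without a test, and every interval is a 95% interval for counting error only.

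Pericytes sit on the outside of capillaries, inside the basement membrane that they share with endothelial cells. Endothelial PDGF-B, acting on the receptor PDGFRB, recruits them, and Notch3 signalling maintains them. They set capillary tone and membrane potential through ATP-sensitive potassium channels, cation channels and cyclic GMP, and in fat depots the mural compartment has been described as one home of adipocyte progenitors.

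The 194 KO pericyte nuclei held 392455 UMIs and the 294 Flox pericyte nuclei 537062. The median pericyte nucleus had 1641 UMIs in KO and 1476 in Flox, below the medians of all barcodes, which were 2755 in KO and 2375 in Flox. Mitochondrial UMIs made up a median of 1.17% of a pericyte nucleus in KO and 0.389% in Flox, and all barcodes differed in the same direction, at 1.12% in KO and 0.425% in Flox. A total of 65 barcode sequences occurred in both libraries, but no pericyte nucleus shared its barcode with a pericyte nucleus of the other library. Nfe2l1 itself (chromosome 11, 96817414 to 96829968, minus strand, mm10) had 32 UMIs in KO pericyte nuclei and 52 in Flox, which is 81.5 and 96.8 CPM (UMIs of the gene for every 1000000 UMIs that the nuclei held together). The log2 ratio of KO over Flox was -0.24 (-0.93 to 0.41), so no difference in the transcript was detectable in these nuclei. In all other kept barcodes the transcript went against the label, at 271 CPM in KO and 120 CPM in Flox. Reads from the 3′ end may lie outside the deleted stretch and cannot then show the deletion, so the libraries are called by their labels and every direction rests on them.

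The pericyte label held for markers that the rule did not use. Of 30 such markers, 28 were in the files and 21 reached 50 UMIs over both libraries, the minimum for every ratio given here. Of these 21, 19 stood at least 2-fold and 12 at least 16-fold above all other kept barcodes in both libraries, where 17.5% of the 4103 genes counted were at least 2-fold and 3.31% at least 16-fold higher. None of the 21 was at least 2-fold lower, against 8.43% of all genes counted. Because the nuclei were chosen on linked genes, and because a marker reaches 50 UMIs more readily where it is high, these shares describe the choice and do not test it. Pdgfrb, the PDGF-B receptor of mural cells, stood at 1238 CPM in KO and 1203 CPM in Flox pericyte nuclei, against 19.5 and 30.1 CPM in the other barcodes of KO and Flox. The markers that fell short of the minimum were Cox4i2, Foxs1, Higd1b, P2ry14, Trpc4, Adcy8 and Nr1h5, the last 2 of them with no UMI in either library.

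Of the 4 smooth muscle genes that the rule limits, 3 were nearly absent. Acta2, smooth muscle actin, had 1 UMI in KO and 0 in Flox, Tagln, an actin-binding protein of smooth muscle, had 0 and 4, and Myocd, the coactivator that drives smooth muscle genes, had 2 and 10. Those 3 genes stood between 487 and 1027 CPM in each library of a set of nuclei chosen for at least 2 of the 4 smooth muscle genes (12 nuclei in KO and 35 in Flox). Myh11, smooth muscle myosin, was present, at 132 CPM in KO and 182 in Flox, in 39 and 63 nuclei, against 2558 and 2070 CPM in the smooth muscle set of KO and Flox. The rule itself limits these genes, so their low level is partly imposed. Over the whole list of 17 smooth muscle markers the sum was 1376 CPM in KO and 1486 in Flox, above 103 and 155 CPM in the other barcodes of KO and Flox. Most of it came from Mylk, myosin light chain kinase, at 530 and 514 CPM, and Ntn4, a netrin, at 553 and 523. Cnn1, calponin, which the rule did not use, had no UMI in pericyte nuclei of either library.

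**Figure D1:**
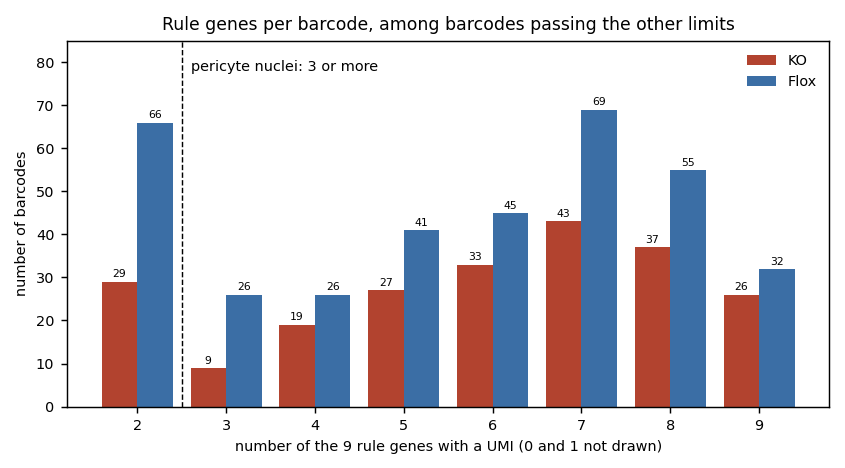
Number of barcodes (vertical axis) by how many of the 9 rule genes had a UMI (horizontal axis), among barcodes that pass the other limits, with KO in red and Flox in blue. Pericyte nuclei are right of the dashed line, and both libraries peak at 7 genes, with 43 nuclei in KO and 69 in Flox.

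The number of rule genes per nucleus separated pericytes from the rest with a shallow gap. Among barcodes that passed the other limits, 2329 in KO and 3915 in Flox had none of the 9 genes, 29 and 66 had 2, and 9 and 26 had 3. The median pericyte nucleus held 7 of the 9 genes in both libraries. Just inside the limit, nuclei with 3 rule genes had 12571 CPM of the markers outside the rule in KO and 12350 CPM in Flox. Just outside it, barcodes with 2 rule genes had 3590 CPM in KO and 2309 CPM in Flox. For the limit on genes of other cells, the barcodes just outside (2 genes, 26 in KO and 59 in Flox) still had 12079 and 10872 CPM of these markers, against 17971 and 17110 CPM in the nuclei just inside (1 gene). Barcodes just past the smooth muscle limit, with 2 of its genes, numbered 3 in KO and 11 in Flox. They had 10773 CPM of the markers outside the rule in KO and 15574.5 in Flox. The nuclei just inside (1 gene) had 17462.5 and 17389 CPM. The barcodes just outside are part of the smooth muscle set. For Ppara and Cidea together, 5 nuclei in KO and 17 in Flox lay at 0.2 to 0.3%, and 8 and 10 barcodes lay at 0.3 to 0.4%.

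Several of the genes far above the other barcodes lie next to each other in the genome. They are not all restricted to pericytes, since Rgs4 stood at 122 CPM in KO and 76.7 in Flox in the smooth muscle set, above its pericyte level. Among the 136 genes at least 16-fold above the other barcodes in both libraries, 4 pairs were direct neighbours among protein-coding genes of GENCODE vM21 (mm10). The 136 include rule genes, and Abcc9, Rgs5 and Il34 of these pairs are rule genes, whose high level was set by the choice of nuclei. Neighbouring pairs among all genes counted were not tallied, so the 4 pairs are a description only. Kcnj8 (chromosome 6, 142564837 to 142571614, minus strand) lies beside Abcc9 (142587862 to 142702315, minus strand), and they encode the pore and the sulfonylurea receptor of the vascular ATP-sensitive potassium channel. Gucy1b1 (chromosome 3, 82032006 to 82074689, minus strand) lies beside Gucy1a1 (82092427 to 82145789, minus strand), the beta and alpha subunits of the nitric oxide receptor guanylate cyclase. Rgs5 (chromosome 1, 169655501 to 169695813, plus strand) and Rgs4 (169741477 to 169747642, minus strand), which both shorten G protein signals, face each other with their 3′ ends. Il34 (chromosome 8, 110741829 to 110805924, minus strand), a ligand of the CSF1 receptor, ends beside Mtss2 (110721476 to 110741400, plus strand), a membrane-bending protein gene.

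The promoters of the first 3 pairs are shown because their genes are high together in pericyte nuclei. The sequences are the bases before the RefSeq start (GRCm38.p6), up to 250, read 5′ to 3′ on the strand of the gene, and bases that fall inside the GENCODE gene were left off, 41 of them for Abcc9. Capitals mark matches on either strand to TGGGAA (the core of the site of RBPJ, the DNA-binding partner of Notch), CATTCC (TEAD factors), CCAAT and TATAAA, and the CArG box of serum response factor was searched as well. The RefSeq starts of Abcc9 and Gucy1a1 both lie inside the GENCODE gene, and the promoter of Gucy1a1 is not shown. Positions in Abcc9 are counted from the RefSeq start, with the 41 bases left off included, and not from the last base printed.
Abcc9 (chr6:142702316-142702524, minus strand): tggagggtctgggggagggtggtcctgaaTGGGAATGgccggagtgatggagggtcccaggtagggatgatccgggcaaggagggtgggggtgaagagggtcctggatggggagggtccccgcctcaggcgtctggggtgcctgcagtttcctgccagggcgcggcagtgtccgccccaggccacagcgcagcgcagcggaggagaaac
Kcnj8 (chr6:142571615-142571864, minus strand): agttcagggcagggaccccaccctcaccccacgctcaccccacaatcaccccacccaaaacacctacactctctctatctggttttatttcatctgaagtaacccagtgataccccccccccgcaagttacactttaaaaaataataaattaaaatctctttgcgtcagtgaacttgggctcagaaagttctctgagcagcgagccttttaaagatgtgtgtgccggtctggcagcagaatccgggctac
Gucy1b1 (chr3:82074712-82074961, minus strand): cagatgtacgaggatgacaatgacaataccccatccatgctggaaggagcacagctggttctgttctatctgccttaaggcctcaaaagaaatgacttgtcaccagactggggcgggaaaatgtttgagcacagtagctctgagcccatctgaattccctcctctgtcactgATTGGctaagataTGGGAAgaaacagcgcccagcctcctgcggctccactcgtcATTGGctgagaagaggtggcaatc
Rgs5 (chr1:169655251-169655500, plus strand): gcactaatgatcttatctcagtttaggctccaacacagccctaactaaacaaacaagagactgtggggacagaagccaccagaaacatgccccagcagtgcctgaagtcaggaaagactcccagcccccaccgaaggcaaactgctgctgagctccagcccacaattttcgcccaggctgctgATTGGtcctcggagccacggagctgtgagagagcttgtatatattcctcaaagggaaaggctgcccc
Rgs4 (chr1:169747643-169747892, minus strand): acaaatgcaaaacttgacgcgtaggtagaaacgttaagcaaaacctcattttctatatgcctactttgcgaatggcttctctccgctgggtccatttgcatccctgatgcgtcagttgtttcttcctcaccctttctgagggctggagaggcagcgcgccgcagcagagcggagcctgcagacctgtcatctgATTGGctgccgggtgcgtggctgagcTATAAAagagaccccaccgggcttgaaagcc
In Abcc9 the capitals hold TGGGAA at -221 to -216 and CATTCC, on the other strand, at -219 to -214, which overlap. Gucy1b1 held TGGGAA at -65 to -60 and 2 CCAAT matches, Rgs5 held 1 CCAAT match, Rgs4 held a CCAAT match and TATAAA at -31 to -26, and Kcnj8 held none of these letters.

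Over the 9 rule genes and the 30 genes furthest above the other barcodes, 28 of 39 symbols matched a RefSeq promoter. Elmod1, Galr1, Gipr, Il34, Lamc3, Rit2, Tbx5, Tmc5 and Wdr72 were among those that did not match. In the 250 bases before the start, TGGGAA was present on either strand in 15 of the 28 (53.6%), against 21.5% of 27025 promoters in the table. CCAAT was present in 13 of the 28 (46.4%), against 34.5% of all. CATTCC was present in 3 of the 28 (10.7%, against 12.6%), TATAAA in 3 (10.7%, against 13%) and the CArG box in 1, that of Trpc6 (3.57%, against 1.41%). The 28 promoters had a median GC content of 56.2%, against 52.0% in all. These matches describe letters in a window, and no factor's binding was measured.

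Outside the rule, 127 genes were at least 16-fold higher in pericyte nuclei than in all other kept barcodes in both libraries, and the 30 furthest above were read as the profile of these nuclei. Galr1, a galanin receptor, had 143 CPM in KO pericyte nuclei and 114 in Flox, against 0.567 and 0.481 CPM in the other barcodes of KO and Flox. Gipr, the receptor of the gut hormone GIP, had 222 CPM in KO pericyte nuclei and 214 in Flox, against 0.637 and 1.07 in the other barcodes. Both receptors were at or near 0 in the endothelial, fibroblast and smooth muscle sets. UMIs of Gipr were found in 55 of 194 KO and 82 of 294 Flox pericyte nuclei, against 0 of 656 KO and 1 of 812 Flox endothelial nuclei, whose median depths of 1812 and 1526.5 UMIs exceed those of the pericyte nuclei. After each nucleus was thinned to 1000 UMIs, Gipr was detected in 18.0% of 150 KO pericyte nuclei and in 19.3% of 218 Flox pericyte nuclei, with 44 and 76 shallower nuclei left out. No thinned endothelial nucleus had a Gipr UMI, which allows a share with one of up to 0.670% in KO and 0.607% in Flox at this depth. The endothelial set left out nuclei with 3 or more of the 9 rule genes, so this low level may be partly imposed.

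Among the 30 were genes of channels and transporters. Kcnj8, the pore of the ATP-sensitive potassium channel, stood at 334 CPM in KO and 369 CPM in Flox pericyte nuclei, against 2.36 and 4.05 in the other barcodes of KO and Flox. Its partner Abcc9, a rule gene, stood at 2732 and 2242 CPM. Trpc6, a cation channel opened downstream of G protein-coupled receptors, stood at 652 CPM in KO and 486 CPM in Flox. Slc4a8, a sodium bicarbonate exchanger, stood at 594 CPM in KO and 451 in Flox. Svopl, a transporter-like protein, stood at 499 and 393 CPM. In the other barcodes each of these 4 genes outside the rule was below 5 CPM in both libraries.

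Both guanylate cyclase genes were also among the 30. Gucy1a1 stood at 550 CPM in KO and 786 CPM in Flox pericyte nuclei, and Gucy1b1 at 492 and 559 CPM. Nostrin, which binds and traffics endothelial nitric oxide synthase, stood at 581 CPM in KO and 534 in Flox. Other genes of the profile were Tbx5, a T-box transcription factor, at 331 CPM in KO and 283 in Flox, Lamc3, a laminin chain, at 176 and 177, and Rgs4 at 81.5 and 52.1. A further 16 genes were Iqsec3, Rit2, Baiap3, Vstm4, Daam2, Col13a1, H2-M9, Tmc5, Olfr558, Tmem273, Tmem200a, Rasl11a, Fhl5, Zfp804b, Agap2 and Wdr72, the last of them at 84.1 CPM in KO and 39.1 in Flox.

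**Figure D2:**
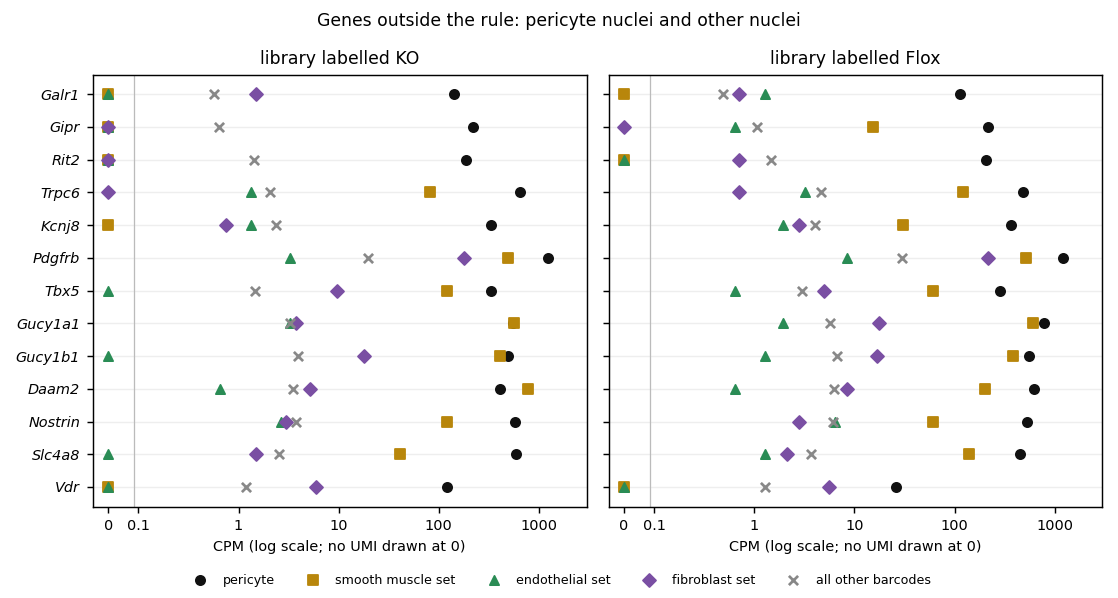
CPM on a log scale (horizontal axis) of 13 genes outside the rule, in pericyte nuclei (black circles), in the smooth muscle, endothelial and fibroblast sets and in all other kept barcodes (grey crosses), with KO on the left and Flox on the right. Pericyte nuclei lie furthest right for most genes, and the smooth muscle set comes close for Gucy1a1 and Gucy1b1. In KO the smooth muscle set lies further right than pericyte nuclei for Gucy1a1 and Daam2. Vdr stands at 122 CPM in KO and 26.1 CPM in Flox pericyte nuclei.

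The nearest set, smooth muscle, shared part of this profile and lacked part of it. Its rule put no limit on the 9 rule genes of pericytes, and its nuclei held a median of 4 of them in KO and 2 in Flox. Nuclei rich in pericyte genes could thus enter it, so its levels need not be those of smooth muscle alone. The smooth muscle set rests on 12 nuclei in KO and 35 in Flox, with 24632 and 65221 UMIs, so that 1 UMI stands for 40.6 CPM in KO and 15.3 CPM in Flox. It had Gucy1a1 at 568 CPM in KO and 613 in Flox, Gucy1b1 at 406 and 383, Daam2, a Wnt pathway formin, at 771 and 199, and the rule genes Stac at 1664 and 1165 and Notch3 at 2679 and 1656. It held no UMI of Galr1, Rit2, Tmem273 or Vdr in either library, and Kcnj8 stood there at 0 CPM in KO and 30.7 CPM in Flox. Kcnq5, a voltage-gated potassium channel and rule gene, stood at 7731 CPM in KO and 5329 in Flox pericyte nuclei, against 2152 and 1595 in the smooth muscle set of KO and Flox.

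Pericyte nuclei were not uniform. Clustered alone, the 488 nuclei fell into 6 groups, which were described by their leading genes and given no cell type name. Cluster 1 held 55 KO and 163 Flox nuclei and cluster 2 held 89 and 64. Cluster 2 was led by Ifi27l2a, an interferon-induced gene, and then mostly by mitochondrial, ribosomal protein and respiratory chain genes, with Csmd1 at rank 3. Csmd1 rested on the Flox library there, with 1 UMI in KO and 57 in Flox nuclei of cluster 2. Mitochondrial RNA stood at 19341 CPM in KO and 15583 in Flox nuclei of cluster 2. The size of cluster 2 is thus tied to RNA that differs between the libraries and is not compared. Summed over both libraries, Kcnq5 stood at 7076 CPM in cluster 1 and 6585 in cluster 2 and Pdgfrb at 1367 and 1323, whereas Rgs5 stood at 1179 in cluster 1 and 1928 in cluster 2 and Kcnd3 at 666 and 446.

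Cluster 3 (31 KO and 20 Flox nuclei) was led by Robo1, an axon guidance receptor, Galr1, Rad18, Mtmr12 and Clstn2. Zfp512 and Ntng1 came next, and of these genes Clstn2 and Ntng1 are synaptic adhesion genes. Galr1 stood at 321 CPM there, found in 20 of 51 nuclei, against 103 CPM in cluster 1 and 121 in cluster 2. Ntng1 stood at 844 CPM in KO and 691 in Flox nuclei of cluster 3, and Clstn2 at 1557 and 1267. These nuclei were deeper than most, with medians of 2586 UMIs in KO and 2469.5 in Flox.

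The 3 small clusters held genes of other cells. Cluster 4 (10 KO and 18 Flox nuclei) was led by Dgkb, Rcan2, Ltbp1, Ctnna3 and Cacnb2, and Dgkb stood at 972 CPM there and 2103 CPM in the smooth muscle set. Myh11 stood at 583 CPM in cluster 4, against 174 in cluster 1, whereas Kcnd3 stood at 55.6 and Galr1 at 0. Its nuclei held a median of 4 rule genes in KO and 3.5 in Flox, near the limit of 3. Cluster 5 (7 KO and 19 Flox nuclei) was led by Ddo, Prdm16, Tenm4 and Esrrg, genes also high in the other barcodes, with adipocyte markers at 17379 CPM in KO and 22973 in Flox and medians of 5630 and 4493 UMIs. Cluster 6 (2 KO and 10 Flox nuclei) was led by Sdk1, Tmeff2, Lvrn, Dcn and Lama2, with fibroblast markers at 11197 CPM in KO and 12133 in Flox. Among the 6 clusters, Pdgfrb and Kcnq5 were lowest in cluster 5, at 395 and 2207 CPM. Removal of the barcodes with the highest doublet scores took 15 of 194 KO and 41 of 294 Flox pericyte nuclei. Of all barcodes it took 1358 of 13030 in KO and 2085 of 16145 in Flox, numbers fixed beforehand from the size of each library. The counts therefore do not show how many pericyte nuclei were doublets.

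**Figure D3:**
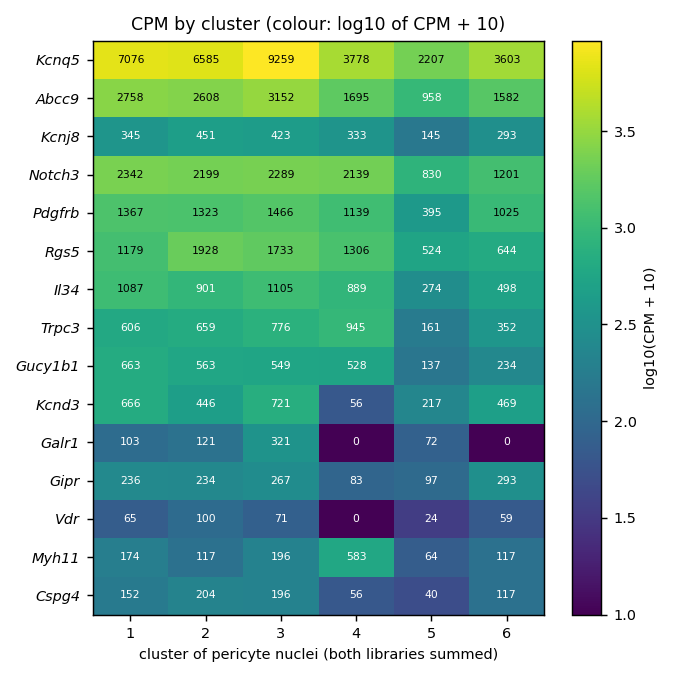
CPM of 15 genes (rows) in the 6 clusters of pericyte nuclei (columns), summed over both libraries and coloured by log10 of CPM + 10. Galr1 is highest in cluster 3 at 321 CPM, Myh11 in cluster 4 at 583 CPM, and Pdgfrb is lowest in cluster 5 at 395 CPM.

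Pericytes made up 1.49% (1.29 to 1.71) of barcodes in KO and 1.82% (1.62 to 2.04) in Flox. The ratio of the shares was 0.818 (0.678 to 0.983). Under 9 other definitions it lay between 0.768 and 0.878, and under 7 of them its interval included 1. Whether the gap came from the tissue or from how nuclei were caught cannot be told apart with 1 library per genotype. A share of barcodes says nothing of absolute cell numbers.

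Within pericyte nuclei, most genes stood close together in the libraries. Of 4103 genes with at least 50 UMIs, 35 (0.853%) were higher in KO by 2-fold or more and 51 (1.24%) were lower by as much. The median log2 ratio of all was -0.02. The genes described next were chosen as the 12 furthest up and the 12 furthest down, leaving out genes whose level, in the library where it was higher, was below that of the other barcodes of that library, and genes with over 25% of that library's UMIs in 1 nucleus. A gene could thus pass through 1 library alone, and 13 of the 24 were below the other barcodes in the library where they were lower. Of the 12 furthest up, Vdr, Zfp949, Nfkbia, Ifitm3 and Tmem94 stayed at least 2-fold apart under each of the 13 alternatives run for them, and of the 12 furthest down only Rybp did.

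Vdr, the vitamin D receptor (chromosome 15, 97854425 to 97910630, minus strand, mm10), was furthest up. It had 48 UMIs in KO pericyte nuclei and 14 in Flox, which is 122 CPM (90.2 to 162) in KO and 26.1 CPM (14.3 to 43.7) in Flox. The log2 ratio was 2.19 (1.35 to 3.20). Vdr UMIs were spread over 22 KO and 14 Flox nuclei, with at most 7 UMIs in 1 KO nucleus and 1 in a Flox nucleus. After thinning to 1000 UMIs, 10.7% (6.22 to 16.7) of KO pericyte nuclei and 2.75% (1.02 to 5.89) of Flox pericyte nuclei had a Vdr UMI. No endothelial nucleus had a Vdr UMI, in a set that left out nuclei with 3 or more rule genes. After thinning, 0 of 549 in KO and 0 of 606 in Flox allow a share with a UMI of up to 0.670% and 0.607%, which limits detection at that depth and not expression. In the other barcodes Vdr stood at 1.18 CPM in KO and 1.29 in Flox, so its higher level in the KO library was not seen outside the pericyte nuclei, though that difference between sets was not tested.

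The other 11 genes furthest up had smaller ratios. Nfkbia, the inhibitor of NF-kappaB, stood at 150 CPM in KO and 54.0 in Flox (log2 ratio 1.46, 0.81 to 2.17), and its log2 ratio in the other barcodes was 0.54. Hspa8, a constitutive heat shock chaperone, stood at 132 and 54.0 CPM (1.28, 0.61 to 2.00). Rhob, a small GTPase of actin and vesicle traffic, stood at 227 CPM in KO and 101 in Flox (1.17, 0.67 to 1.69). Zfp949, a zinc finger gene, had a log2 ratio of 1.65 in pericyte nuclei and 1.45 in the other barcodes, and Rhob 1.17 and 1.01, so for these 2 genes the libraries differed about as much across the tissue. Bmpr1b, a BMP receptor, stood at 96.8 CPM in KO and 42.8 in Flox, with 22 and 13 nuclei holding its UMIs, but its log2 ratio of 1.16 came to 0.12 (-0.52 to 0.74) with at least 2 rule genes. The rest were Ube2d1, a ubiquitin-conjugating enzyme (1.43), Cdc16, a subunit of the anaphase-promoting complex (1.16), Ppp1r21 (1.43), Ifitm3, an interferon-induced membrane protein (1.28), Tmem94 (1.28) and Zbtb10, a zinc finger gene (1.27). After thinning, Ppp1r21 stood at 0.39 and Zbtb10 at 0.23.

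**Figure D4:**
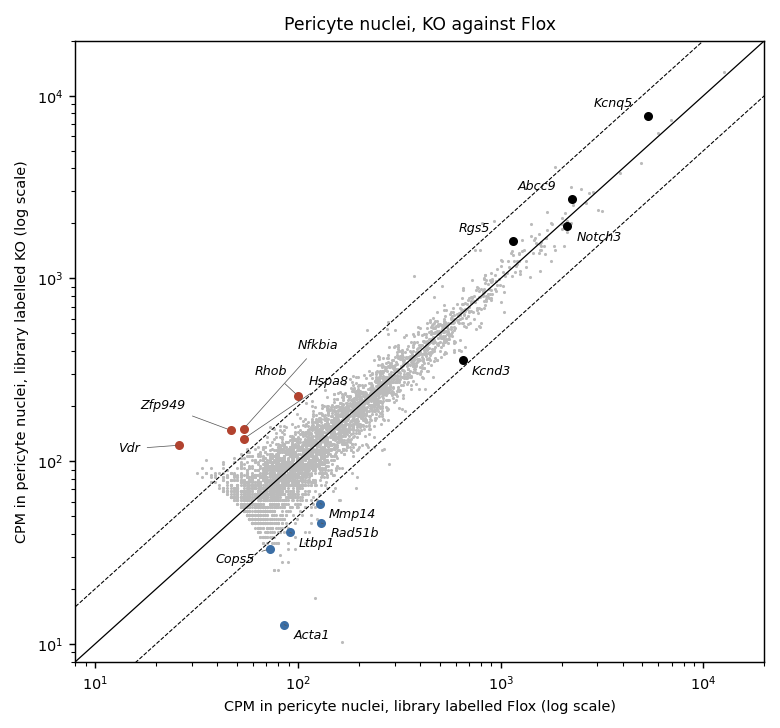
CPM in KO pericyte nuclei (vertical axis) against CPM in Flox pericyte nuclei (horizontal axis) for 4103 genes, both on log scales, with equality as a solid line and 2-fold as dashed lines. Genes named for a higher level in KO are red, those named for a lower level blue, and 5 rule genes black. Vdr is furthest above the lines and Acta1 furthest below among the named genes.

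Acta1, skeletal muscle actin, was furthest down, with 5 UMIs in KO pericyte nuclei and 46 in Flox (12.7 and 85.7 CPM, log2 ratio -2.63, -4.44 to -1.42). It stood at 22.8 CPM in KO and 79.0 CPM in Flox in the other barcodes, and summed markers of skeletal muscle stood at 211 CPM in KO pericyte nuclei and 451 in Flox. The part of free muscle RNA in this gap was not tested. Mmp14, a membrane-bound matrix metalloprotease that mural cells use to remodel collagen, stood at 58.6 CPM in KO and 128 in Flox (-1.11, -1.88 to -0.43). Afap1l2, an adaptor of the kinase Src, stood at 71.3 and 153 CPM (-1.08, -1.77 to -0.46), but at -0.48 after thinning. Ltbp1, which binds latent TGF-beta in the matrix, stood at 40.8 CPM in KO and 91.2 in Flox (-1.13), but at -0.19 once clusters 4, 5 and 6 were left out. Cops5, the catalytic subunit of the COP9 signalosome, had a log2 ratio of -1.10, Fbxo9, an F-box protein of ubiquitin ligases, -1.45, and Atp6v1a, a subunit of the vacuolar proton pump, -1.10. Rad51b, a DNA repair gene, had -1.48, Rybp, a Polycomb protein, -1.37, Pknox1, a homeodomain factor, -1.38, Adam11 -1.13 and Ccni -1.04. In the fibroblast set Mmp14 stood at 414 CPM in KO and 296 in Flox, above pericyte nuclei. Ltbp1, at 547 and 557 CPM, and Rad51b, at 303 and 230, were also higher there. Most of the 12 genes were not above their pericyte level there in both libraries. The part of fibroblast RNA in these ratios was not tested.

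Without clusters 4, 5 and 6, a choice made after seeing the data, 33 genes were higher in KO by 2-fold or more, 16 of them among the 35, and 25 were lower, 13 of them among the 51. A smaller part of the 51 lower genes than of the 35 higher ones was thus shared. Only 3365 of the 4103 genes still reached 50 UMIs, so some could drop out by the minimum alone. Vdr stood at a log2 ratio of 2.29 without these clusters and Mmp14 at -0.92.

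The rule genes stood on both sides of 0. Their values chose the nuclei and are given without a reading. Kcnq5 had a log2 ratio of 0.54, Rgs5 0.48, Abcc9 0.29, Il34 0.27 and Elmod1 0.20, while Lin7a had -0.10, Notch3 -0.14, Stac -0.37 and Kcnd3 -0.86 (-1.16 to -0.58). Kcnd3, a voltage-gated potassium channel of the transient outward current, stood at 357 CPM in KO and 650 in Flox, with UMIs in 69 and 140 nuclei. After thinning it was detected in 24.7% of KO and 38.1% of Flox pericyte nuclei.

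Gene lists of pericyte function were then read by how many of their counted genes were at least 1.5-fold apart, beside 5.07% higher and 6.29% lower by that size among all 4103 genes. Of 19 higher and 24 lower list genes recomputed under the 13 alternatives, 8 and 5 stayed past that size in all of them. The 8 were Timp3, Actb, Nfkbia, Hspa8, Gja4, Ifi27l2a, Notch4 and Gna13, and the 5 included Iigp1, Peg3, Nrp2 and the rule gene Kcnd3. Of 7 potassium channel genes counted, 0 were higher and 1 was lower (median log2 ratio -0.10). The lower one, Kcnd3, is a rule gene, as are Abcc9 and Kcnq5 in this list, so nothing is read from it, and none of the genes outside the rule was 1.5-fold apart. Kcnq1, a voltage-gated channel, stood at 288 CPM in KO and 363 in Flox, a log2 ratio of -0.33. Of 20 calcium and cation channel genes, none was 1.5-fold apart and the median was 0.13. Cacna1c, the L-type calcium channel, stood at 3096 CPM in KO and 2497 in Flox (0.31), Cacna2d1, its accessory subunit, at 364 and 251 (0.54), and Ano1, a calcium-activated chloride channel, at 1251 and 1017 (0.30).

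The contractile apparatus and its cyclic nucleotide brake were largely level. Of 30 contractile and cytoskeletal genes, 2 were higher and 1 lower, with a median of 0.11. The 2 higher were the cytoplasmic actins Actb, at 494 CPM in KO and 279 in Flox (0.82, 0.51 to 1.14), and Actg1, at 132 and 83.8 (0.66), and the lower was Tpm1, a tropomyosin, at 120 and 201 (-0.74). Reads of actin genes and their pseudogenes can be hard to place, so these counts are uncertain. Among 21 genes of cyclic GMP and cyclic AMP signalling, 1 was higher, Prkar1a (0.63), and none was lower (median -0.04). Prkg1, the cyclic GMP-dependent kinase, stood at 13497 CPM in KO and 12641 in Flox (0.09), and its substrate Irag1 at 1343 and 1151 (0.22). Gucy1a1 had a log2 ratio of -0.51 (-0.76 to -0.27), and Gucy1b1 -0.18 (-0.45 to 0.08).

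Receptors for vasoactive hormones were led by Agtr1a, the angiotensin II receptor, at 790 CPM in KO and 717 in Flox (0.14), and Ednra, the endothelin A receptor, at 494 and 542 (-0.13). Of the 54 receptor and enzyme genes in this list, 10 reached the minimum, 1 was higher and none lower (median 0.14). The higher one was Ptger2, a prostaglandin E2 receptor that raises cyclic AMP, at 189 CPM in KO and 119 in Flox (0.66). Adra1a, an adrenergic receptor, stood at 117 and 168 CPM (-0.51), and was higher in the other barcodes, at 1437 CPM in KO and 940 in Flox. Among 21 genes of RGS proteins and G proteins, Gna13 (0.66) and Rgs4 (0.64) were higher and none was lower (median 0.03).

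**Figure D5:**
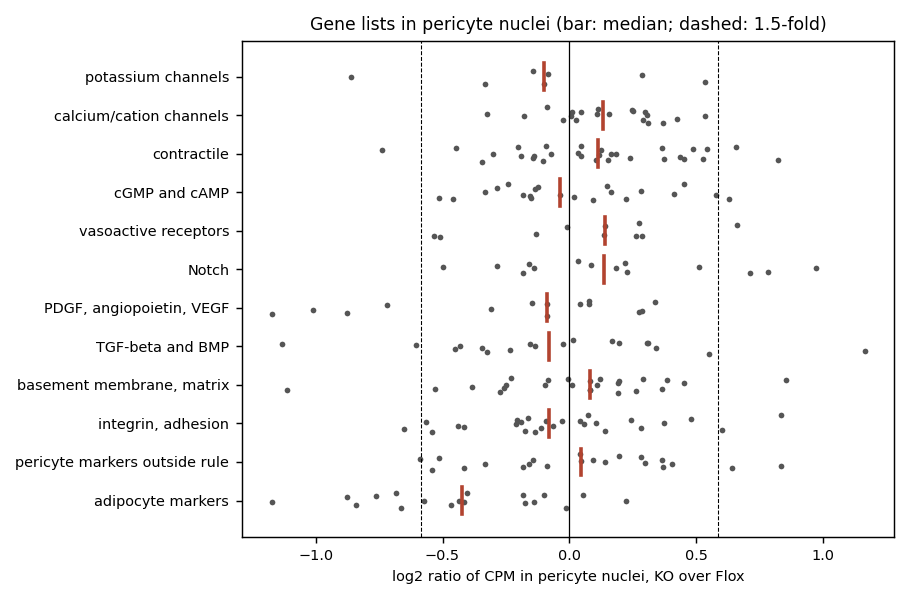
Log2 ratio of CPM in pericyte nuclei, KO over Flox (horizontal axis), of each counted gene of 12 gene lists (rows, 1 point per gene), with the list median as a red bar and 1.5-fold as dashed lines. Medians lie between -0.10 and 0.14 except for the adipocyte markers, at -0.42.

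Some genes of crosstalk with endothelium were lower in KO and some Notch genes were higher. Of 14 genes of PDGF, angiopoietin, VEGF and ephrin signalling, none was higher and 4 were lower (median -0.09). Angpt2, a Tie2 ligand that loosens pericyte contact, stood at 61.2 CPM in KO and 125 in Flox (-1.01, -1.77 to -0.34), Fgf1 at 40.8 and 76.3 (-0.88), and Efna5 at 115 and 261 (-1.17). Nrp2 stood at 94.3 and 156 CPM (-0.72). Efna5 and Nrp2 were both lower in pericyte nuclei than in the other barcodes of either library. After thinning Angpt2 stood at -0.13, and Fgf1 stood at -0.26 with none of the smooth muscle genes allowed. Angpt1, the stabilising Tie2 ligand, was nearly level, at 624 CPM in KO and 693 in Flox (-0.15). Of 14 Notch pathway genes, 3 were higher and none lower (median 0.14). Among the higher ones, Notch4 stood at 150 CPM in KO and 76.3 in Flox (0.97, 0.38 to 1.59) and Rbpj, the DNA-binding partner of Notch, at 148 and 85.7 (0.78), which came to 0.28 after thinning. Heyl, a Notch target gene of mural cells, stood at 110 and 123 CPM (-0.16), and Maml3, a Notch coactivator, at 3154 and 2214 (0.51).

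Matrix genes held 1 difference each way. Of 25 basement membrane and matrix genes, Timp3, an inhibitor of metalloproteases, was higher, at 1427 CPM (1311 to 1550) in KO and 789 CPM in Flox (log2 ratio 0.85, 0.67 to 1.04), and Mmp14 was lower (median 0.08). Under the alternatives Timp3 stayed between 0.75 and 1.01, and Mmp14 between -1.41 and -0.53. In the other barcodes Timp3 stood at 127 CPM in KO and 124 in Flox, but the higher level in KO was not particular to pericyte nuclei. Timp3 stood at 1299 CPM in KO and 690 in Flox in the small smooth muscle set. It stood at 1230 and 836 CPM in the endothelial set and at 501 and 426 in the fibroblast set. The protein of Timp3 is known to inhibit that of Mmp14. The collagen IV genes Col4a1 (482 CPM in KO and 573 in Flox) and Col4a2 (454 and 592) had log2 ratios of -0.25 and -0.38, and Postn, periostin, stood at 2023 and 1769 CPM (0.19). Of 26 integrin and adhesion genes, 2 were higher, Gja4, a connexin (0.83), and Nectin3 (0.60), and 1 was lower, Itgav (-0.65), with a median of -0.08.

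Of 18 TGF-beta and BMP genes, Bmpr1b was higher and Ltbp1 and Smad2 (-0.60) lower (median -0.08), and none of the 3 stayed 1.5-fold apart under every alternative. Of 34 transcription factors of mural and mesenchymal cells, none was higher and 3 were lower, namely Peg3 (-0.66), Prrx1 (-0.62) and Tbx18 (-0.59), with a median of -0.02. Ebf1, a factor of mural cells and adipocyte progenitors, stood at 7384 CPM in KO and 6927 in Flox (0.09). Nerve and axon guidance genes had 0 of 14 higher and 3 lower (median -0.17), Sema6d at 122 CPM in KO and 220 in Flox (-0.84), Ntf3, the neurotrophin NT-3, at 125 and 218 (-0.79), and Nrp2. Of 11 genes of cytokine signalling, Nfkbia and Jak1 (0.61) were higher and none was lower (median 0.16).

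The gene groups tied to NFE2L1, the factor named in the series design, were also read, though its loss in pericyte nuclei was not shown by these counts. NFE2L1 is known to drive proteasome genes. Of 9 counted proteasome genes, 1 was higher, Psma3, a 20S alpha subunit, at 265 CPM in KO and 169 in Flox (0.64), and none was lower (median -0.12), and the other 25 genes of the list fell short of 50 UMIs. Psmd1, a 19S scaffold subunit, stood at 112 and 106 CPM in KO and Flox pericyte nuclei, against 71.3 and 141 CPM in the other barcodes of KO and Flox. Of 13 endoplasmic reticulum and heat shock genes, Hspa8, Herpud1 (0.70) and Hsp90ab1 (0.64) were higher and Atf6 (-0.66) was lower (median 0.07). Of 7 CNC, BACH and small MAF genes and processing factors, 1 was lower, Mafg (-0.64). Of 12 interferon-induced genes, 1 was higher, Ifi27l2a (0.93), and 3 were lower, among them Iigp1 at 96.8 CPM in KO and 281 in Flox (-1.52, -2.09 to -1.02). All 12 were below the other barcodes in 1 or both libraries. Ifi27l2a led cluster 2, where it stood at 205 CPM in KO and 169 in Flox. The part of cluster 2, which held 89 KO and 64 Flox nuclei, in the ratio of Ifi27l2a was not tested.

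RNA of other cells moved with part of these results. Adipocyte markers stood at 7917 CPM summed over 21 genes in KO pericyte nuclei and 9941 in Flox, below 29338 and 27417 CPM in the other barcodes of KO and Flox. Of 18 counted, none was higher and 6 were lower, with a median of -0.42, Ucp1 had 2 UMIs in KO and 8 in Flox, and the rule limited Ppara and Cidea. Respiratory chain genes (0 of 26 higher, 1 lower, median -0.24) and fatty acid oxidation genes (0 of 19 higher, 1 lower, median -0.31), which are high in brown adipocytes, also had medians below 0. Fibroblast markers stood at 1223 CPM in KO and 1545 in Flox, and Schwann markers at 155 and 514 CPM, where Csmd1 alone had 4 UMIs in KO and 89 in Flox. Over both libraries Csmd1 stood at 1169 CPM in the smooth muscle set, against 77.2 in the other barcodes. Whether its UMIs came from Schwann cells was not tested. Endothelial markers stood at 2630 and 2370 CPM, mostly from Cd36, while Flt1 had 1 UMI in KO and 8 in Flox, and Vwf 0 and 3. Macrophage markers stood at 466 and 408 CPM, with Itgam at 0 in both libraries. Markers of T and NK cells summed to 20 UMIs in KO and 29 in Flox, of mast cells to 24 and 37, and of mesothelium to 2 and 1. The B and dendritic list was carried by Ebf1, which pericytes express, with Cd79a, Cd79b, Ms4a1, Pax5 and Xcr1 at 0 in both libraries, and erythroid markers stood at 117 CPM in KO and 177 in Flox. The part of this RNA in the differences above was not tested.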

How the data were processed

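Each deposited matrix holds whole-number UMI counts of 22620 genes by barcode. Cell Ranger 5.0.0 is named in the file headers, and mm10 in the submitters' processing notes. The sources used here state neither the annotation, nor the treatment of intron reads, nor how nuclei were called. The total was 43080725 UMIs in KO and 46528077 in Flox. Barcodes were taken by the rule given at the start of the report, without clustering and without doublet removal, and UMIs were summed per library and divided by their total (CPM). Other kept barcodes were all barcodes with at most 10% mitochondrial UMIs outside the pericyte set (12713 in KO and 15752 in Flox). Endothelial and fibroblast sets were chosen by like rules (both genes of their own, Flt1 and Cyyr1 or Col6a3 and Dcn, and none of the other cells). Both sets also had to hold fewer than 3 of the 9 rule genes and fewer than 2 smooth muscle genes. Low levels of pericyte genes in them may thus be partly imposed. The smooth muscle set had no limit on the 9 rule genes.

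Log2 ratios are KO over Flox after 0.5 UMI was added to each sum, where both libraries together had at least 50 UMIs. Intervals are exact Poisson for CPM, exact binomial for ratios and Clopper-Pearson for shares, at 95%, and cover counting error only. With 1 library per genotype no test was run, so a gene was counted as apart by size alone, at 2-fold, or 1.5-fold in lists. The pericyte definition and the 37 gene lists were chosen with earlier results of these data known. Genes were named by rule: 12 each way among genes that, in the library with the higher CPM, were not below the other barcodes and had at most 25% of UMIs in 1 nucleus, leaving aside genes of mitochondria, ribosomal proteins (Rpl, Rps), haemoglobin, sex chromosomes and unnamed clones, then 30 against the other barcodes, up to 4 plus the most abundant per list, and Nfe2l1, the rule genes, Pdgfrb, Cspg4, Kcnj8 and Mcam. Some genes that this rule takes are not reported here. Members were clustered with scanpy 1.11.5 and leidenalg 0.10.2 (1000 variable genes, 15 components, 15 neighbours, resolution 0.5). Doublets were scored with Scrublet. The counting was tested on simulated data. Gene positions came from GENCODE vM21 (mm10) and promoters from RefSeq (GRCm38.p6). TMM factors came from edgeR 4.0.16 in R 4.3.3. The scripts ran in Python 3.11.15 with SciPy 1.17.1, NumPy 2.4.6, matplotlib 3.10.9 and pandas 2.3.3.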

Additional observations from a re-analysis of the deposited data

How the results depend on the processing

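The ratio of shares stayed inside its reported interval under all 9 alternatives to the definition, but its interval included 1 under 7 of them. The number of pericyte nuclei moved with the limits. It came to 152 in KO (1.17% of barcodes) and 220 in Flox (1.36%) with none of the smooth muscle genes allowed, to 122 (0.936%) and 176 (1.09%) with none of the genes of other cells, and to 150 (1.15%) and 218 (1.35%) with at least 1000 UMIs. In Flox it also came to 360 (2.23%) with at least 2 rule genes, 243 (1.51%) with Ppara and Cidea below 0.1%, 253 (1.57%) without the highest doublet scores and 247 (1.53%) without clusters 4, 5 and 6. Genes at least 2-fold higher in KO numbered 57 with at least 2 rule genes, 57 by the mean CPM over nuclei, 10 after thinning, 175 with a minimum of 20 UMIs and 1573 with none. Genes at least 2-fold lower numbered 99 with at least 2 rule genes, 29 without the highest doublet scores, 25 without clusters 4, 5 and 6, 16 after thinning, 249 with a minimum of 20 UMIs, 2172 with none and 20 among genes not below the other barcodes in the library with more. Over all functional lists, 20 genes were higher by 1.5-fold or more and 24 lower, against 8 higher after thinning, 37 and 58 with a minimum of 20 UMIs, 93 and 176 with none, and 14 lower among genes not below the other barcodes. Thinning leaves fewer genes to count (1698 of 4103), and lower minimums add genes with few UMIs; the cause of the other shifts was not tested. For named genes, 1303 values under the alternatives stayed inside the counting interval of the reported value and 44 left it. After thinning, Itgav came to 0.0089, Rnf213 to 0.54 and Tbx18 to 0.019, against reported ratios below 0, and Tbx18 came to 0.040 with none of the genes of other cells. For summed lists 406 stayed inside and 48 left it, and 1 changed sign, the Schwann markers, with a log2 ratio of -1.72 as reported and 0.66 with at least 2 rule genes. Acta1 had a log2 ratio of -0.64 and Ltbp1 -0.10 with at least 2 rule genes. No paired analysis was possible because each genotype has 1 library. At this depth genes under 50 UMIs, among them most proteasome genes, gave no ratio.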
